A study of Arabidopsis thaliana with 8 samples.

Results

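This account covers 10 Arabidopsis thaliana genes of the sugar starvation response and of branched-chain amino acid breakdown, out of 27444 protein-coding nuclear genes, and the binding of the transcription factor GBF2 at them. The 10 were chosen by name: the dark-inducible genes DIN1, DIN3, DIN4, DIN6, DIN9 and DIN10, the transaminase gene BCAT2, the carboxylase genes MCCA and MCCB, and the dehydrogenase gene IVD. A gene counted as having a peak when the deposited files assigned a peak to its identifier. By this rule the genes took 2 of the 767 peaks of the tunicamycin list, 0 of the 320 peaks of the DMSO list, and 2 of the 502 peaks that the submitters set apart as specific to tunicamycin.

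All libraries came from whole seedlings of the Columbia accession (Col-0) with a transgene in which the GBF2 promoter drives GBF2 tagged with Ypet, a yellow fluorescent protein that the GFP antibody was used to pull down, so the DMSO seedlings carried the transgene too. Seedlings 5 days old were kept in liquid medium for 6 h, either with 0.5 µg/mL tunicamycin, which blocks N-glycosylation and so disturbs protein folding in the endoplasmic reticulum, or with its solvent DMSO. The medium on which they had grown held sucrose, and the labels name no dark or sugar-free treatment. Chromatin was precipitated with that antibody in 2 libraries per treatment, beside 2 input libraries per treatment, 8 in all. The lists give no value per library, so sequencing depth and replicate spread are unknown, no condition could be tested over samples, and a gene without a peak is not shown to be free of GBF2. Whether replicates were pooled for calling is not given in the sources used here.

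GBF2 is a basic leucine zipper (bZIP) protein that binds the G-box, a DNA element with an ACGT core. When plant cells run short of sugar, in the dark for example, the protein kinase SnRK1 is active, and bZIP factors of the groups C and S1, which bind ACGT elements too, take part in switching on genes that release energy and nitrogen from stored material. The DIN genes were named for transcripts that rise in darkness. Leucine, isoleucine and valine are then degraded, largely in mitochondria: a transaminase removes the amino group, a dehydrogenase complex of the subunits E1, E2 and E3 turns the keto acid into an acyl-CoA, and on the leucine branch IVD and then methylcrotonyl-CoA carboxylase continue the route.

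GBF2 peaks lay at MCCA and DIN10 under tunicamycin and at none of the other 8 genes in any list. MCCA codes for the biotinylated subunit of methylcrotonyl-CoA carboxylase, and DIN10 is listed as raffinose synthase 6 in the RefSeq gene table. The 2 genes are 20% of the members, where 2.27% of all protein-coding nuclear genes had a tunicamycin peak. In the DMSO list 0 of the 10 members had a peak, where 0.849% of all protein-coding genes had one, so a count of 0 says little about these genes. Members were not tested against other genes as a group, because the genes were picked with earlier results of these data known.

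**Figure D1:**
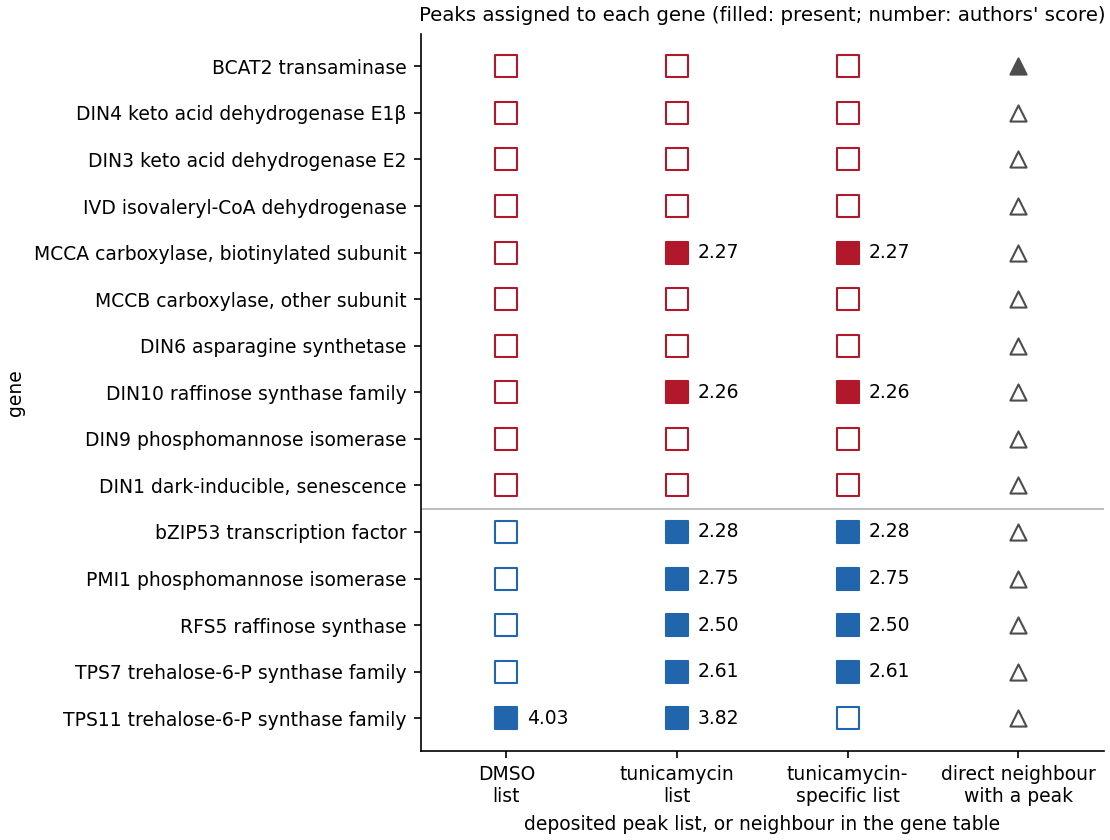
The plot shows, for each of the 10 member genes (red) and the 5 other pathway genes with a peak (blue), whether a peak was assigned in each deposited list (filled squares, with the authors' score) and whether a direct neighbour in the gene table had a peak (filled triangles). Filled red squares appear at MCCA and DIN10 alone, in the tunicamycin and the tunicamycin-specific list, and the filled triangle is at BCAT2.

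The genes were followed along the breakdown route. BCAT2 (AT1G10070), a branched-chain transaminase, had no peak. DIN4 (AT3G13450), an E1 beta subunit of the keto acid dehydrogenase, and DIN3 (AT3G06850), its E2 subunit, had none. IVD (AT3G45300), the isovaleryl-CoA dehydrogenase that passes electrons toward the respiratory chain, had none either. MCCA (AT1G03090) was the first gene of the route with a peak, at chromosome 1, 739247 to 740007 (TAIR10 coordinates throughout). MCCB (AT4G34030), which codes for the other subunit of the same carboxylase, had no peak. This is 1 of the 6 members on the route, and with 2.27% of all protein-coding genes in the tunicamycin list, members without a peak are no result about the route.

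The peak at MCCA was 761 bp wide, and 16.8% of the tunicamycin peaks were narrower. Its score was 2.27 at rank 566 of 767, with 26.2% of the list scoring lower. The score is the authors' own value for each peak, called a signal value in the file headers, and it orders peaks within a list only. The authors classed this peak as a promoter peak within 1 kb, as they did 76.0% of all tunicamycin peaks, and by score it took place 427 of the 583 peaks so classed. By the strand code of the files MCCA lies on the sense strand. The nearest DMSO peak was 163 kb away and was assigned to AT1G02660, so no DMSO peak lay close to the locus.

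The remaining members belong to nitrogen transport, sugar metabolism and senescence. DIN6 (AT3G47340), also named ASN1, makes asparagine, a carrier of nitrogen, and had no peak. DIN9 (AT1G67070), a phosphomannose isomerase that interconverts the phosphates of mannose and fructose, had no peak. DIN1 (AT4G35770), the senescence-associated gene SEN1, had none. DIN10 (AT5G20250) was the single gene of these 4 with a peak, at chromosome 5, 6832474 to 6833645.

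The DIN10 peak was 1172 bp wide, wider than 80.1% of the tunicamycin list, whose median width was 878 bp. Its score of 2.26 stood at rank 569 of 767, with 25.8% of the list scoring lower. It too was classed as a promoter peak within 1 kb, at a gene on the sense strand, and it took place 430 of the 583. The nearest DMSO peak was 354 kb away, at AT5G19257, and the nearest other tunicamycin peak was 174 kb away, at AT5G20700. The peaks of MCCA and DIN10 thus differed in width and scored almost alike, 0.00204 apart on the deposited scale.

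**Figure D2:**
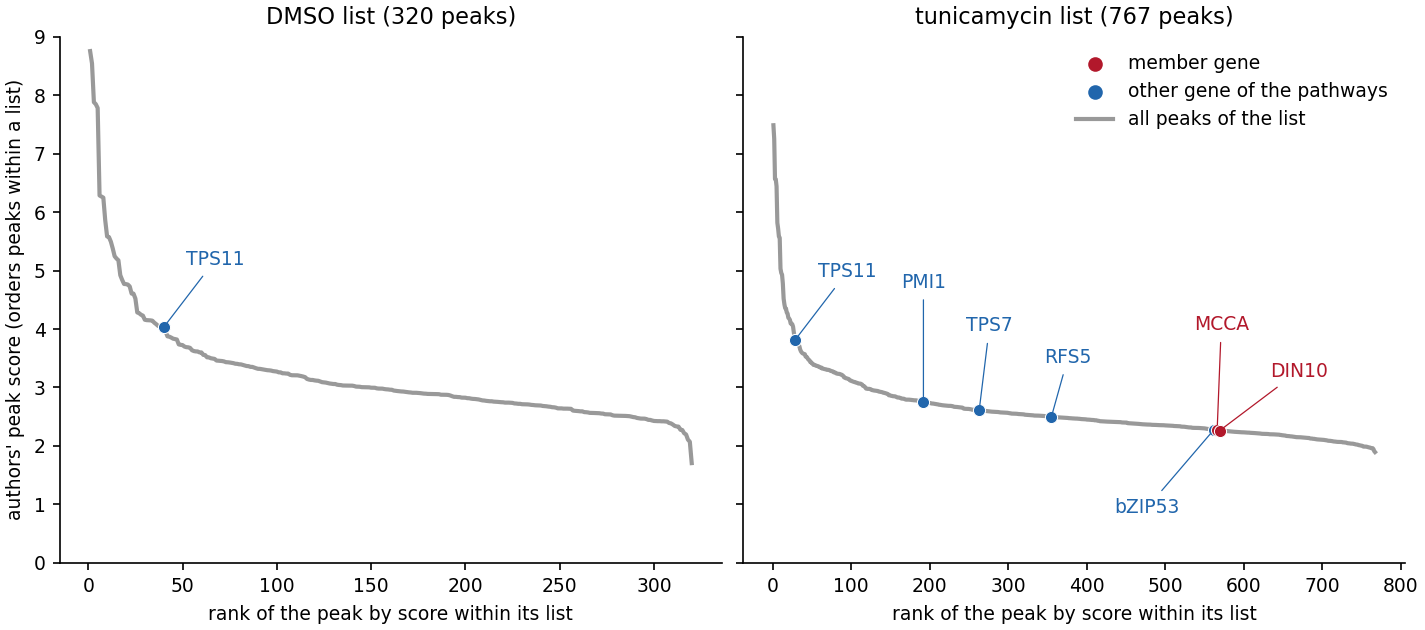
Each panel plots the authors' peak score (vertical axis, deposited units) against the rank of the peak within its list (horizontal axis), with all peaks as a grey line, member genes in red and other pathway genes in blue. MCCA at rank 566 and DIN10 at rank 569 lie on the flat lower stretch of the tunicamycin list, while TPS11 lies on the steep upper stretch of both lists.

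Both member peaks were of low score for their list. The tunicamycin list ran from 1.89 to 7.49 with a median of 2.47 and a lower quartile of 2.26, so both peaks lay close to that lower quartile. Among the 490 tunicamycin peaks that overlapped no DMSO peak by at least 1 bp, the median was 2.35, and MCCA stood at place 308 and DIN10 at place 311. Few peaks of this strength were found in both treatments. The list was cut by score into 10 bins. Of the 77 peaks in the bin of MCCA and DIN10, with scores from 2.22 to 2.31, 7 (9.09%) overlapped a DMSO peak, against 97.4% in the bin of the highest scores. The absence of a DMSO peak at MCCA and DIN10 was thus shared with most peaks of like score, and it cannot be told apart from a DMSO list called from fewer reads.

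**Figure D3:**
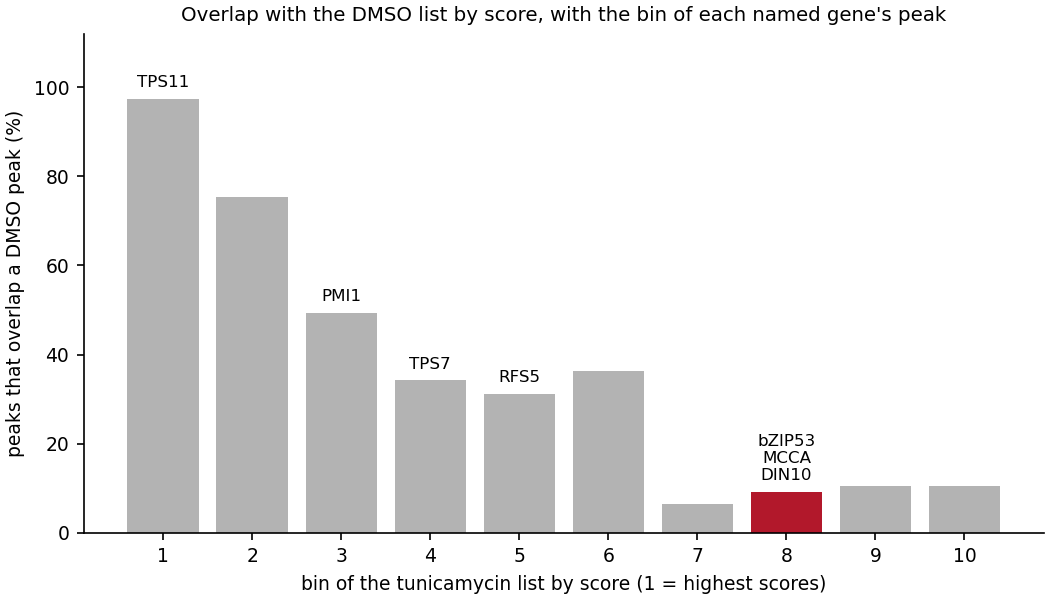
Bars give the percentage of tunicamycin peaks that overlap a DMSO peak by at least 1 bp, for 10 bins of the list ordered by score, and names mark the bin that holds the peak of each pathway gene. MCCA, DIN10 and bZIP53 fall in bin 8 (red bar, 9.09%), and TPS11 in bin 1 (97.4%).

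The peaks of both genes had no DMSO overlap under each overlap rule, and both were in the submitters' specific list. The nearest DMSO peaks were 163 kb and 354 kb away, so no overlap or midpoint rule could have removed them. With the overlap rule they were 2 of 10 members, where 1.49% of all protein-coding genes had such a peak. In the submitters' specific list they were 2 of 10, where 1.52% had a peak. How that list was set apart is not stated in the sources used here, and it is not the set without DMSO overlap. Its 502 peaks reached a score of 5.82, whereas the 490 tunicamycin peaks without DMSO overlap reached 3.51. With the strongest 50% of the tunicamycin list, 0 of the 10 members had a peak.

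Genes next to the members were examined because the files give 1 gene per peak. BCAT2 was the single member with a neighbour that had a peak, in the gene order of the RefSeq table (assembly TAIR10.1): the next gene, AT1G10090, had a tunicamycin peak at chromosome 1, 3295810 to 3296698, which scored 2.53 and took rank 322. It overlapped no DMSO peak and was classed as a promoter peak within 1 kb. The files put AT1G10090 on the antisense strand, and the table puts it at higher coordinates than BCAT2, so its start lies at its end away from BCAT2. On the other side BCAT2 adjoins its paralogue BCAT1 (AT1G10060), which had no peak. A neighbour with a tunicamycin peak was found for 1 of 10 members and for 3.92% of all protein-coding genes. In the DMSO list it was found for 0 of 10 members and for 1.42% of all.

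The peaks of MCCA and DIN10 had no neighbouring gene with a peak of its own. MCCA lies between NET1D (AT1G03080), a gene of an actin-binding protein family, and the long non-coding RNA gene AT1G04157, with AT1G03100 as the next protein-coding gene. DIN10 lies between the non-coding RNA gene AT5G00425 and AT5G20260. Its nearest protein-coding neighbour on the lower side is PI (AT5G20240), the floral homeotic gene PISTILLATA. MCCB, DIN1, DIN3, DIN4, DIN6, DIN9 and IVD likewise had no peak at a direct neighbour.

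The other genes of the pathways were then counted, in 4 lists of 53 genes in all. Of 17 further genes listed with branched-chain amino acid breakdown, 0 had a peak in any list. These included BCAT1, BCAT3, BCAT4, BCAT5 and BCAT6, listed as paralogues of BCAT2, whether or not each acts in breakdown. Also listed were the E1 alpha genes E1A1 (AT1G21400) and E1A2 (AT5G09300), and the E1 beta gene E1B1 (AT1G55510), a paralogue of DIN4. Both genes of the mitochondrial lipoamide dehydrogenase, the E3 subunit, were listed too. ETFQO and both subunits of the electron transfer flavoprotein, which take up electrons from IVD, had no peak. With the 6 members on the route counted in, 1 of 23 listed genes had a tunicamycin peak, or 4.35%, beside the 2.27% of all protein-coding genes. A count this small sets the listed genes apart in neither direction. Of 10 genes of proline, glutamate, lysine and methionine breakdown and of asparagine synthesis, 0 had a peak, among them ASN2 and ASN3, the paralogues of DIN6. Beside the 2.27% of all protein-coding genes, a count of 0 of 10 says little about them.

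Among 11 genes of SnRK1 and of the C and S1 bZIP factors, 1 (9.09%) had a tunicamycin peak, beside 2.27% of all protein-coding genes. In the DMSO list 0 of the 11 had a peak, beside 0.849% of all. Counts this small set these genes apart in neither direction. The gene with a peak was bZIP53 (AT3G62420), an S1 factor known to act on DIN6 and on the proline dehydrogenase gene PRODH1. Its tunicamycin peak, a promoter peak within 1 kb, lay at chromosome 3, 23092352 to 23093282. It scored 2.28 and took rank 562. It stood 4 places above MCCA in the list, overlapped no DMSO peak, and was in the submitters' specific list. The catalytic SnRK1 genes KIN10 and KIN11, and bZIP1, bZIP2, bZIP11, bZIP44 and bZIP63, had no peak.

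Of the 5 listed genes beside the members with a tunicamycin peak, 4 belonged to the list of 15 sugar metabolism genes. That is 26.7% of this list, where 2.27% of all protein-coding genes had such a peak. In the DMSO list 1 of the 15 (6.67%) had a peak, where 0.849% of all protein-coding genes had one. The 15 were chosen with earlier results of these data known, so the shares are a description only. TPS11 (AT2G18700), of the class of trehalose-6-phosphate synthase relatives, was the gene with peaks in both the tunicamycin and the DMSO list. Its tunicamycin peak at chromosome 2, 8107369 to 8108831, scored 3.82 at rank 29 of 767. Its DMSO peak at 8107425 to 8108514 scored 4.03 at rank 40 of 320 and lay wholly within the tunicamycin peak. TPS11 was therefore among the stronger sites of each list, unlike MCCA and DIN10. A relative of the same class, TPS7 (AT1G06410), had a tunicamycin peak with a score of 2.61 at rank 263, at chromosome 1, 1953482 to 1954412, and no DMSO peak. The other listed genes of the trehalose-6-phosphate synthase family, TPS1, TPS5, TPS6, TPS8, TPS9 and TPS10, had no peak in any list.

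A paralogue of DIN9 and a paralogue of DIN10 each had a peak. PMI1 (AT3G02570), the second phosphomannose isomerase gene beside DIN9, had a tunicamycin peak of 1646 bp at chromosome 3, 545328 to 546973, which scored 2.75 and took rank 192, whereas DIN9 had none. RFS5 (AT5G40390), a raffinose synthase, had a peak at chromosome 5, 16162568 to 16163806, which scored 2.50 and took rank 355. The authors classed that peak as lying in exon 1 of 5, not in the promoter, and it was the single peak of these 7 outside the promoter class. Neither PMI1 nor RFS5 had a DMSO peak, and both peaks were in the specific list. RFS1, RFS2 and RFS4, the other listed genes of the raffinose synthase family, had no peak in any list. DIN2 and DIN11, the dark-inducible genes outside the 10 members, had no peak.

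**Figure D4:**
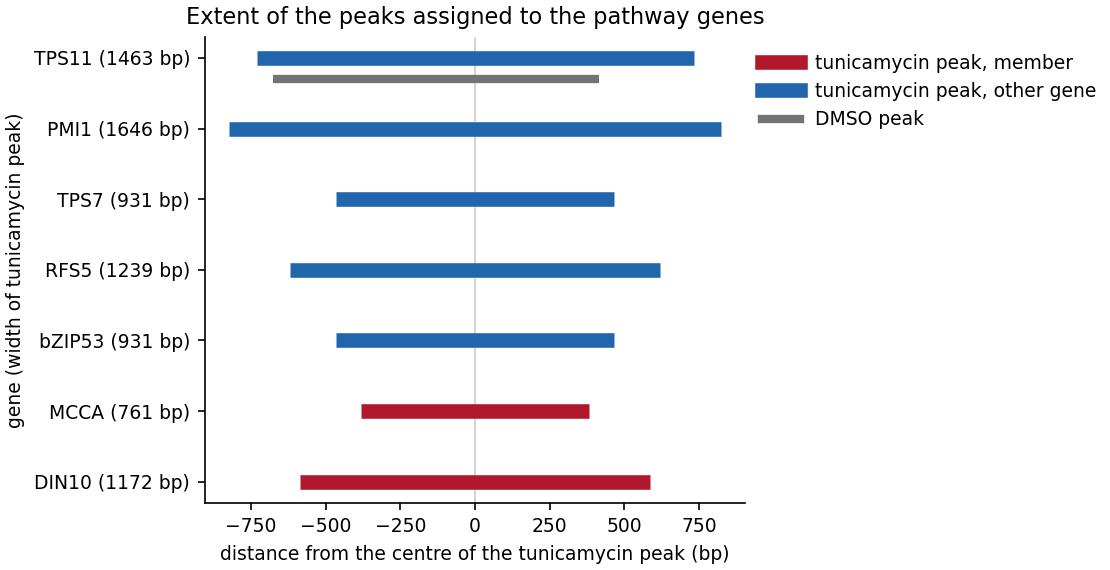
Horizontal bars give the extent of each tunicamycin peak in bp from its own centre, for the 2 member genes (red) and the 5 other pathway genes (blue), with the DMSO peak in grey where there was one. MCCA has the narrowest bar (761 bp) and PMI1 the widest (1646 bp), and the grey bar appears at TPS11 alone.

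Across these lists 7 of 63 genes, the members included, had a tunicamycin peak. The 53 genes beside the members held 5 of them, or 9.43%, against the 2.27% of all protein-coding genes, and 1 of the 53 (1.89%) had a DMSO peak against 0.849%. These lists too were drawn up with earlier results of the data known, and the shares are given as a description.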

How the data were processed

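GBF2 binding was measured by chromatin immunoprecipitation and sequencing of 8 libraries. Per the submitters' processing notes, the build was TAIR10 and the tools were MACS2 2.1.2, Bowtie 1.1.2, SAMtools 1.8, cutadapt 1.8.1 and FastQC 0.11.5. Neither settings nor calling threshold nor the way of gene assignment is given in the sources used here. Deposited by the authors were 3 peak lists, each with a score per peak, a width in bp, a position class and a gene identifier. In all 1589 rows the width equalled end minus start plus 1, so both end positions belong to the peak. The number at which counting of bases starts was not checked.

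Peaks were joined to genes by identifier, and an overlap of 1 bp or more made 2 peaks shared, a rule checked on made intervals. Names and gene order came from the RefSeq table of TAIR10.1, whose coordinates were not set against peaks. All 63 listed genes were found in it. Members and lists were chosen with earlier results of these data known. No test was run, since no file holds values per library. The genes named were the members, the listed genes with a peak, direct neighbours of members with a peak or of members that have one, and paralogues or subunits of members. AT1G02660, AT5G19257, AT5G20700 and the listed genes named as having no peak were named outside this rule. Planned searches for G-box and other motifs were not run, since no sequence was used here. Python 3.11.15, pandas 2.3.3, numpy 2.4.6 and matplotlib 3.10.9 were used.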

Additional observations from a re-analysis of the deposited data

How the results depend on the processing

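For 7 counts, 2 to 4 alternatives each were run, 22 in all, and 19 of these kept the count within 1.5 times. Not all of the 19 could have moved: a DMSO count of 0 members stays 0 in any part of the list. With the strongest 50% of each list, the members with a tunicamycin peak, with a peak in the specific list and with a tunicamycin peak without DMSO overlap each came to 0, where 2 had been found, since the setting leaves out the weaker peaks, MCCA and DIN10 among them. Counting a neighbour's peak added BCAT2, which gave 3 members, also with neighbours taken among protein-coding genes alone, a setting chosen after seeing the data. This rise from 2 to 3 lies exactly at the limit of 1.5 times and was held the same. The other overlap rules (50% of the shorter peak, midpoints within 200 bp) kept both genes. They could not have done otherwise, since the nearest DMSO peaks lay 163 kb and 354 kb away. No paired analysis was possible because the lists hold no values per library, and for the same reason no library could be left out. The alternatives for promoter motifs were not run. Depth is unknown, which limits any reading of a gene without a peak.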

Other observations

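Further genes of sugar storage and transport had peaks. Their families were taken by name from the RefSeq table after the peaks had been examined and because a member had a peak, so each family holds at least 1 such gene by choice, and its count shows nothing against the 2.27% of all protein-coding genes with a tunicamycin peak and the 0.849% with a DMSO peak. Of 10 galactinol synthase genes, whose product is the galactosyl donor of raffinose synthesis, 2 had a tunicamycin peak. GolS2 (AT1G56600) had peaks in both lists, with a DMSO score of 4.05 at rank 37 of 320 and a tunicamycin score of 2.95 at rank 127 of 767. GolS3 (AT1G09350) had a tunicamycin peak with a score of 2.67 and no DMSO overlap.

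Scores are not compared between lists here, so ranks stand beside them. Among 10 genes of trehalose phosphate phosphatases, TPPA (AT5G51460) had peaks in both lists. Its tunicamycin score was 3.25 at rank 80 of 767, and its DMSO score was 2.74 at rank 222 of 320. Of 9 beta-amylase genes, BAM9 (AT5G18670, score 2.71) and BAM2 (AT4G00490, score 2.32) had tunicamycin peaks without DMSO overlap. AMY3 (AT1G69830), 1 of 3 alpha-amylase genes, had peaks in both lists. Its tunicamycin score was 2.24 at rank 589 of 767, and its DMSO score was 2.96 at rank 161 of 320. The tunicamycin score of AMY3 was below those of MCCA and DIN10 and within the range of their bin (2.22 to 2.31). In that bin 7 of 77 peaks overlapped a DMSO peak. Of 17 SWEET sugar transporter genes, SWEET15 (AT5G13170), also named SAG29 for its link with senescence, had peaks in both lists. Its tunicamycin score was 2.93 at rank 135 of 767, and its DMSO score was 3.06 at rank 129 of 320. The hexose transporter gene STP1 (AT1G11260), 1 of 10 in its family, had a tunicamycin peak in the promoter class of 2 to 3 kb with a score of 2.21 at rank 623. The invertase gene A/N-InvC (AT3G06500), 1 of 9, had a promoter peak at rank 627.

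Among the 53 listed genes outside the members, a direct neighbour with a tunicamycin peak was found for 3 in the order of all gene kinds (BCAT6, TPS5 and TPS9), beside 3.92% of all protein-coding genes, and for 2 in the order of protein-coding genes alone (bZIP44 and TPS9), beside 4.44%. The neighbour of BCAT6, the transfer RNA gene AT1G50100, had peaks in both lists. By the deposited strand code and the gene order its start lies at its end away from BCAT6. The neighbours of TPS5, TPS9 and bZIP44 had tunicamycin peaks without DMSO overlap, classed as promoter peaks within 1 kb. They lie at lower coordinates on the antisense strand, so their starts lie at their ends toward TPS5, TPS9 and bZIP44.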
